A study of Mus musculus with 6 samples.

Results

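Cholesterol is made from acetyl-CoA in a long chain of enzymatic steps, and the genes of this chain are a classical set of targets of the transcription factor SREBP2. In the mouse gene table of this study, 31 genes were taken by their names out of 57180 listed genes: 20 enzymes from acetoacetyl-CoA to cholesterol, 6 genes that control SREBP2, and 5 genes of sterol uptake, transport and storage. The 31 names were given as a list by function, and each was found once in the table. RNA was sequenced from primary hepatocytes, the main parenchymal cells of the liver, isolated from male mice of C57BL/6 background aged 8 to 10 weeks and kept in dexamethasone-containing medium with serum. All cells received palmitic acid, a saturated fatty acid, at 0.1 mM for 24 h. The groups are LOXP, in which the *Sting* gene is floxed and intact, and KO, the liver STING-specific knockout made with a Cre recombinase under the albumin promoter, which is active in hepatocytes. Each group had 3 libraries. Whether the 3 libraries of a group came from separate mice or cultures is not given in the sources used here, so p-values measure the spread between these libraries, which may be technical. Cells without palmitic acid are not analysed here, so each comparison is between genotypes under the fatty acid.

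SREBP2, encoded by *Srebf2*, is made as a membrane protein of the endoplasmic reticulum, where the carrier SCAP holds it. When membrane sterol is low, SCAP takes SREBP2 to the Golgi, the proteases encoded by *Mbtps1* and *Mbtps2* cut it, and the released fragment enters the nucleus and turns on the genes of sterol synthesis and lipoprotein uptake. The proteins of *Insig1* and *Insig2* keep SCAP in the endoplasmic reticulum when sterol is plentiful. Hepatocytes both make cholesterol and take it up, and they store the excess as cholesteryl esters or send it into bile and lipoproteins.

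The libraries held from 14726983 to 18536985 counted reads, and 14151 genes had enough counts to be tested. *Sting1* (ENSMUSG00000024349) had 19, 16 and 23 counts in LOXP replicates 1, 2 and 3 and 24, 23 and 15 in the libraries labelled KO, a log2 fold change of -0.08 ± 0.298 (SE, n = 3 per group; adjusted p = 0.883). Its level thus did not set the libraries labelled KO apart, and counts over a whole gene do not separate a floxed exon from the rest of the transcript. In these counts the genotype therefore rests on the labels, and the RT-PCR of *Sting* that the study describes is not analysed here. The words higher or lower always refer to the libraries labelled KO relative to LOXP. The hepatocyte label was borne out by *Alb*, the albumin gene, at a mean of 7670 FPKM in LOXP and 6541 in the libraries labelled KO. FPKM is the read count scaled to gene length and sequencing depth, and it is used below to compare levels between genes. To compare libraries, counts scaled to library size (CPM) and normalized with edgeR's TMM factors are given. Fold changes are on the log2 scale with their standard errors, and each adjusted p comes from the quasi-likelihood test of edgeR, corrected over the 14151 genes by the Benjamini-Hochberg method.

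Most genes of the chain were higher in the libraries labelled KO. All 31 genes passed the filter on low counts. At an adjusted p under 0.05, 16 of the 31 were higher, where the share among all genes tested was 11.5%, and 3 were lower, where it was 11.6%. The other 12 did not pass. The same 16 and 3 genes had groups that did not overlap, meaning that every library of one group lay above every library of the other, which held for 20.4% of all genes in the higher direction and 20.3% in the lower one. The median log2 fold change of the 31 genes was 0.40, against -0.0021 for all genes tested, and 26 genes were above 0. The study's authors also asked for a log2 fold change beyond 1 and for an average above 1 FPKM in one group, and by these stricter criteria *Lrp8* was the single gene called higher, where the background share was 0.558%, and 0 were called lower, where it was 1.49%. Apart from *Lrp8*, each called gene thus changed by less than 2-fold. The plot of each gene in each library shows the 3 libraries of a group close together for most genes.

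**Figure D1:**
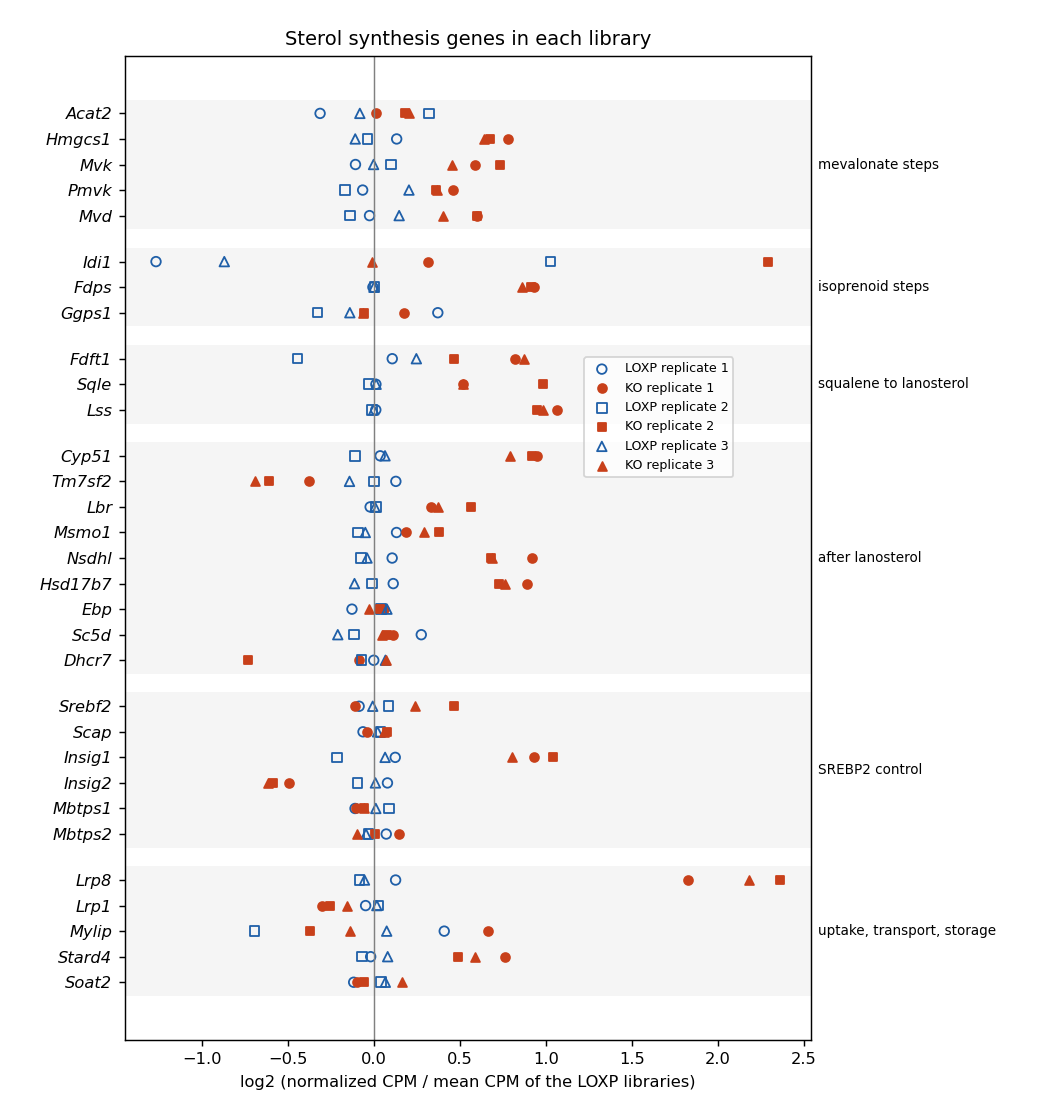
Normalized CPM of each of the 31 genes in each library, as log2 of its ratio to the mean of the 3 LOXP libraries, with open blue symbols for LOXP, filled orange symbols for KO and circles, squares and triangles for replicates 1, 2 and 3. Filled symbols lie right of all open ones for 16 genes and left of all open ones for *Tm7sf2*, *Insig2* and *Lrp1*, while *Idi1* is spread widely in both groups.

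Most of the genes that were higher were enzymes. Of the 20 enzymes, 13 were higher, 1 was lower and 6 did not pass the test, and their median log2 fold change was 0.57. Their summed level was 150, 140 and 143 FPKM in LOXP replicates 1, 2 and 3 and 220, 223 and 211 FPKM in the libraries labelled KO, a 1.51-fold higher mean (144 ± 4.77 against 218 ± 6.55 FPKM, SD, n = 3). Every sum in the libraries labelled KO exceeded every LOXP sum. The control genes summed to 62.2 ± 1.002 FPKM in LOXP and 70.2 ± 3.92 FPKM in the libraries labelled KO, and the uptake, transport and storage genes to 55.1 ± 2.17 and 55.9 ± 4.36 FPKM.

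The stretch of DNA upstream of a sterol gene is where SREBP2 and its partners NF-Y and Sp1 bind, so the 250 bases before the start of transcription are shown for genes on which the results turn: early, middle and late enzymes that were higher, and the *Insig* pair that moved in opposite directions. The sequences are those of RefSeq on build GRCm38.p6, read 5′ to 3′ on the gene's strand, and positions count back from the start. Capitals mark matches, on either strand, to 3 motifs: TCACNCCAC, the core of the sterol regulatory element; CCAAT, the NF-Y box (ATTGG on the other strand); and GGGCGG, the Sp1 box (CCGCCC on the other strand). The windows are chr13:119690101-119690350 on the plus strand for *Hmgcs1*, chr5:114444019-114444268 on the plus strand for *Mvk*, chr10:76531355-76531604 on the plus strand for *Lss*, chr1:169969206-169969455 on the minus strand for *Hsd17b7*, chr5:28071162-28071411 on the plus strand for *Insig1*, and chr1:121332590-121332839 on the minus strand for the most upstream of 3 listed starts of *Insig2*.
Hmgcs1: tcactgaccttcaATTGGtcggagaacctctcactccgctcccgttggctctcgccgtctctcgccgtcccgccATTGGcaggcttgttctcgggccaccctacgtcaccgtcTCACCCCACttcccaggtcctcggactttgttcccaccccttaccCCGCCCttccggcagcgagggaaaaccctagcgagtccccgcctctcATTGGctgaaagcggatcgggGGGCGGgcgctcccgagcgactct
Mvk: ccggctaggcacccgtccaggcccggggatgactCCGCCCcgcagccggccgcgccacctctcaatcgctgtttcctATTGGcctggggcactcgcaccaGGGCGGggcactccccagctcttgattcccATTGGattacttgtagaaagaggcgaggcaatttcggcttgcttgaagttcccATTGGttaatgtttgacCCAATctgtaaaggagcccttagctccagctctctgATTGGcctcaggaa
Lss: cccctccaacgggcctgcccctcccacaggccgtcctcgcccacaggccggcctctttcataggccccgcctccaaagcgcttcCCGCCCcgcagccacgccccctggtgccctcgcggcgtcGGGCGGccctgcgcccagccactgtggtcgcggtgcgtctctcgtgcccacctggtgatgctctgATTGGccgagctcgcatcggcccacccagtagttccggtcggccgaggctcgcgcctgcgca
Hsd17b7: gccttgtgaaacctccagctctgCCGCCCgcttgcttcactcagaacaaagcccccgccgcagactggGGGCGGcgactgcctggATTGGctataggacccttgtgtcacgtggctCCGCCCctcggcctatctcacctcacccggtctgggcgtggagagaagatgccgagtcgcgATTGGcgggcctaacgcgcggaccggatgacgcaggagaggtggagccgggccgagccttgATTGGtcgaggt
Insig1: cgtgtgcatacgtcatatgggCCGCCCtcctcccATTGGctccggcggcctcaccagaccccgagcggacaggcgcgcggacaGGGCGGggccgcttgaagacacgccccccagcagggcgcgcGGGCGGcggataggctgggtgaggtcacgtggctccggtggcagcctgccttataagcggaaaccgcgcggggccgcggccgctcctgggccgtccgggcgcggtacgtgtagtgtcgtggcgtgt
Insig2: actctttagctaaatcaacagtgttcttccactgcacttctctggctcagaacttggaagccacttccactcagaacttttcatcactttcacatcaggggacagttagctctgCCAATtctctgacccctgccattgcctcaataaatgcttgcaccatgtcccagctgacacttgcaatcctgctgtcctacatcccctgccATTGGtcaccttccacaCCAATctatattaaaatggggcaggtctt

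*Hmgcs1* holds the exact sterol element at -137 to -129, flanked by NF-Y and Sp1 boxes. The promoter of *Mvk* holds 5 NF-Y boxes and that of *Hsd17b7* holds 3. Motifs were counted from 250 bases before to 50 bases after each listed start, and 26 of the 31 genes had an entry. The 5 without an entry were *Fdps*, *Fdft1*, *Sqle*, *Stard4* and *Soat2*, and all of these but *Soat2* were higher. *Hmgcs1* was the single one of the 26 with TCACNCCAC, which 1.44% of 27025 genes with an entry hold. CCAAT was found in 20 of the 26, where 41.1% of all genes hold it, and GGGCGG in 22 of the 26, where 38.2% do. These shares are over all genes with an entry, whether or not these cells had enough counts to test them. By response, CCAAT was in 11 of 12 genes that were higher, 2 of 3 that were lower and 7 of 11 that did not pass, and GGGCGG in 10 of 12, 3 of 3 and 9 of 11. *Lrp8*, the gene with the largest fold change of the 31, has none of the 3 motifs in any listed window. A match describes letters in a window and is not evidence of binding, and sterol elements vary in sequence.

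The chain opens with the mevalonate steps, in which 4 of 5 genes were higher. *Hmgcs1* (ENSMUSG00000093930, chromosome 13, 120151915 to 120169796), the cytosolic HMG-CoA synthase, stood at 137, 122 and 116 CPM in LOXP replicates 1, 2 and 3 and at 215, 200.0 and 195 CPM in the libraries labelled KO. The groups were well apart, with a log2 fold change of 0.70 ± 0.0754 (adjusted p = 0.000512). *Mvk* (ENSMUSG00000041939, chromosome 5, 114582330 to 114598652), the mevalonate kinase, was at 12.4, 14.3 and 13.4 CPM in LOXP and 20.1, 22.3 and 18.4 CPM in the libraries labelled KO. It was higher by 0.60 ± 0.108 (adjusted p = 0.00567), and the lowest KO library exceeded the highest LOXP library. *Mvd* (ENSMUSG00000006517, chromosome 8, 123160340 to 123170161), which makes isopentenyl diphosphate by decarboxylation, was at 11.0, 10.2 and 12.4 CPM in LOXP and 17.0, 17.0 and 14.9 CPM in the libraries labelled KO. Its groups did not overlap either (0.54 ± 0.115, adjusted p = 0.0119). *Pmvk*, the phosphomevalonate kinase between them, was higher by 0.40 ± 0.116 (adjusted p = 0.0407). It lost the call in 5 of the 6 fits that left out a single library (adjusted p from 0.0843 to 0.114), keeping it only without LOXP replicate 3. *Acat2*, the cytosolic thiolase that makes acetoacetyl-CoA, had a log2 fold change of 0.14 ± 0.147 (adjusted p = 0.550). Of the stretches of 50 bases that can be read from its transcripts (its 50-base words), 39.1% occur in *Acat3*, which fell by 0.85 on the log2 scale (SE 0.105, adjusted p = 0.000980), so the counting could split reads between the 2 genes and the value of *Acat2* is uncertain.

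The isoprenoid steps join the isoprene units and lead to farnesyl diphosphate, the branch point to sterols, dolichol, ubiquinone and prenylated proteins. *Fdps* (ENSMUSG00000059743, chromosome 3, 89000895 to 89009266), the farnesyl diphosphate synthase, was at 55.6, 56.0 and 55.8 CPM in LOXP and 107, 105 and 101 CPM in the libraries labelled KO. The LOXP libraries lay within 1.006-fold of each other, and the difference was 0.90 ± 0.0592 (adjusted p = 5.17e-05), or 1.87-fold. Some 26.2% of its 50-base words occur in other annotated genes, mainly *Gm43738*. *Ggps1*, which extends farnesyl to geranylgeranyl diphosphate away from sterols, had a log2 fold change of 0.02 ± 0.181 (adjusted p = 0.959). It overlaps *Arid4b* on the opposite strand, a gene with 2073 counts over the 6 libraries against 1147 for *Ggps1*. *Arid4b* had a log2 fold change of 0.0022 ± 0.128 (adjusted p = 0.993). The strand setting of the counting is not given in the sources used here, so reads of the pair may not be told apart. *Idi1* (ENSMUSG00000058258, chromosome 13, 8935537 to 8942487), the isopentenyl diphosphate isomerase, is described in full because of its spread, which was seen in the values. It was at 7.95, 39.0 and 10.5 CPM in LOXP replicates 1, 2 and 3 and at 23.8, 93.8 and 19.0 CPM in the libraries labelled KO. Replicate 2 was the highest library in both groups, the groups overlapped, and the highest library was 4.90 times the lowest in LOXP and 4.93 times in the libraries labelled KO, where the next largest ratio among the 31 genes was 2.15. The log2 fold change was 1.27 ± 0.723 (adjusted p = 0.250), and it was 0.17 without KO replicate 2 and 2.31 without LOXP replicate 2. Of its 50-base words, 17.7% occur in the pseudogene *Gm13502*.

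Squalene to lanosterol was the stretch in which each of the 3 genes was higher. *Lss* (ENSMUSG00000033105, chromosome 10, 76367422 to 76392972), the lanosterol synthase that closes the sterol rings, was at 33.2, 32.7 and 32.9 CPM in LOXP and 68.8, 63.5 and 65.0 CPM in the libraries labelled KO. Its groups were narrow and far apart, with a log2 fold change of 0.998 ± 0.0660 (adjusted p = 5.17e-05), just short of the authors' fold criterion. *Sqle* (ENSMUSG00000022351, chromosome 15, 59186926 to 59203041), the squalene epoxidase and a rate-limiting step, was at 78.8, 76.7 and 78.9 CPM in LOXP and 112, 155 and 112 CPM in the libraries labelled KO. It was higher by 0.69 ± 0.122 (adjusted p = 0.00513), with KO replicate 2 the farthest from LOXP. *Fdft1*, the squalene synthase that commits farnesyl units to sterols, was higher by 0.73 ± 0.175 (adjusted p = 0.0194). It lost the call without KO replicate 1 (adjusted p = 0.0608) and without KO replicate 3 (adjusted p = 0.0648). *Fdft1* overlaps *Ctsb* on the opposite strand, a gene with 106172 counts over the 6 libraries against 7324 for *Fdft1*, and the strand setting of the counting is not given in the sources used here, so reads of the pair may not be told apart. *Ctsb* fell by 0.20 on the log2 scale (SE 0.0578, adjusted p = 0.0381), and any part of its reads in the value of *Fdft1* was not tested.

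After lanosterol, 9 genes remove methyl groups and move double bonds, and of these 5 were higher, 1 was lower and 3 did not pass. *Cyp51* (ENSMUSG00000001467, chromosome 5, 4131145 to 4154746), the lanosterol demethylase, was at 77.9, 70.4 and 79.4 CPM in LOXP and 147, 143 and 131 CPM in the libraries labelled KO. The groups were far apart (0.89 ± 0.0729, adjusted p = 0.000149). It overlaps *Akap9* on the opposite strand in 2.63% of its 50-base words, and that gene had a log2 fold change of 0.05 ± 0.0930 (adjusted p = 0.7503). *Hsd17b7* (ENSMUSG00000026675, chromosome 1, 169777104 to 169796810), the ketosteroid reductase of the demethylation complex, was at 36.5, 33.5 and 31.2 CPM in LOXP and 62.5, 55.9 and 57.2 CPM in the libraries labelled KO. It was higher by 0.79 ± 0.0829 (adjusted p = 0.000441). *Nsdhl* (ENSMUSG00000031349, chromosome X, 71962163 to 72002120), its partner dehydrogenase, was at 30.2, 26.6 and 27.3 CPM in LOXP and 53.2, 45.1 and 45.2 CPM in the libraries labelled KO, a difference of 0.77 ± 0.0920 (adjusted p = 0.000846). *Msmo1*, the methyl oxidase of the same complex, was higher by 0.29 ± 0.0803 (adjusted p = 0.0342), and lost the call in 4 of the 6 fits that left out a library (adjusted p from 0.0880 to 0.128), keeping it without LOXP replicate 1 or KO replicate 1.

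The reduction of the first double bond after demethylation can be carried out by the products of both *Lbr* and *Tm7sf2*, and these genes moved apart. *Lbr* (ENSMUSG00000004880, chromosome 1, 181642900 to 181670611), which also encodes the lamin B receptor of the nuclear envelope, was at 22.5, 23.0 and 22.9 CPM in LOXP and 28.7, 33.7 and 29.5 CPM in the libraries labelled KO, a difference of 0.43 ± 0.0861 (adjusted p = 0.00922). *Tm7sf2* (ENSMUSG00000024799, chromosome 19, 6112851 to 6118403) was the single enzyme that was lower, at 22.8, 20.8 and 18.9 CPM in LOXP and 16.1, 13.7 and 12.9 CPM in the libraries labelled KO. Its groups did not overlap and its log2 fold change was -0.55 ± 0.118 (adjusted p = 0.0115). The fold of *Tm7sf2* was -0.32 on the log2(FPKM + 1) scale of limma-trend, which compresses low levels. It shares 9.87% of its 50-base words with the neighbouring gene *Vps51* on the same strand, which had a log2 fold change of 0.06 ± 0.0798 (adjusted p = 0.629). The last steps of the chain did not pass the test. *Ebp*, the sterol isomerase, had a log2 fold change of 0.02 ± 0.0770 (adjusted p = 0.870), *Sc5d*, the sterol desaturase, of 0.08 ± 0.118 (adjusted p = 0.685), and *Dhcr7*, the last reductase of one branch, of -0.21 ± 0.178 (adjusted p = 0.445). *Sc5d* passed when LOXP replicate 1 was left out (0.24, adjusted p = 0.0413). *Dhcr7* was low in 1 library, KO replicate 2, at 23.7 CPM against 37.1 and 41.4 CPM in the other KO libraries.

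**Figure D2:**
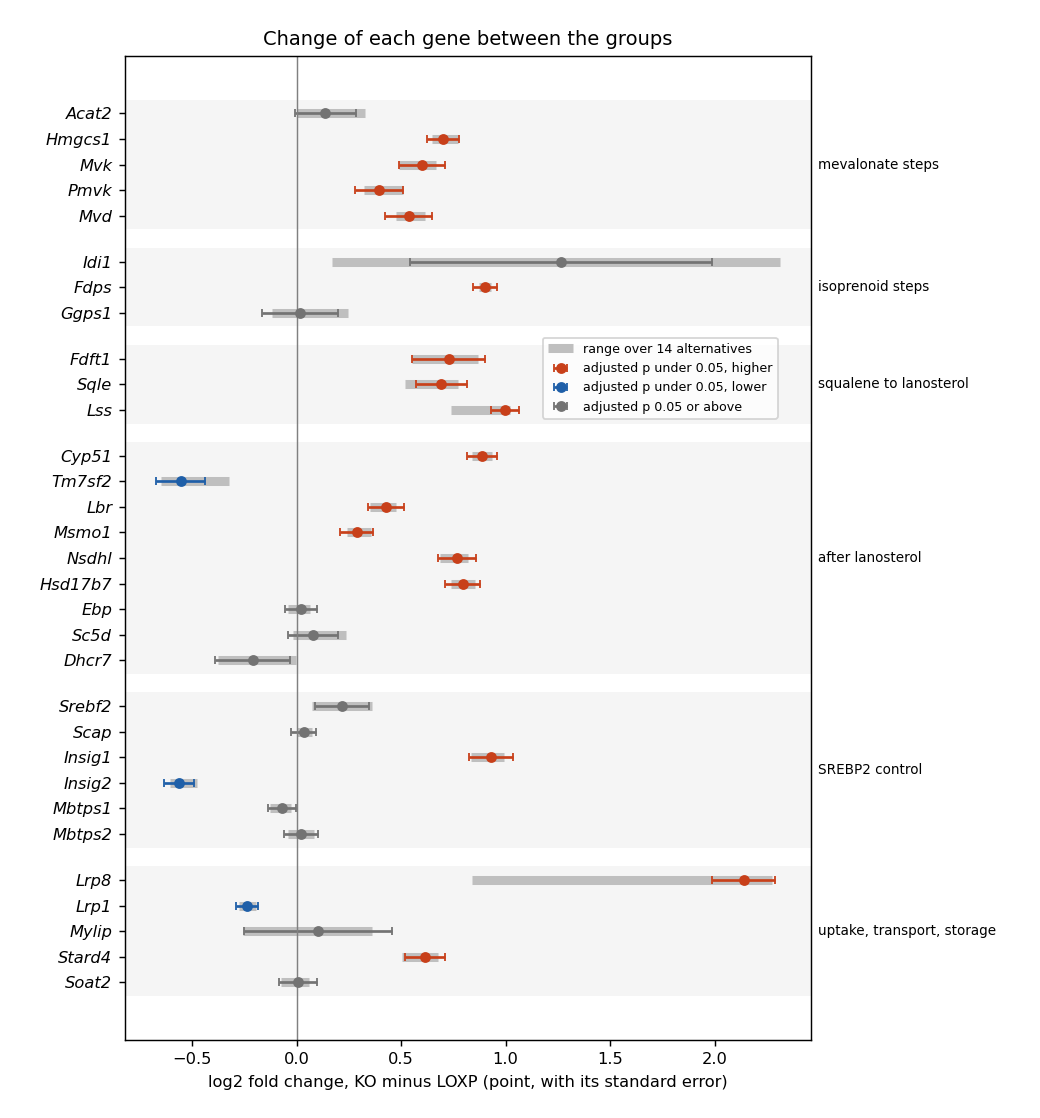
Log2 fold change of each gene between the libraries labelled KO and LOXP (points) with its standard error (thin bars, n = 3 per group), over the range of the fold change across 14 alternative analyses (thick grey bars), coloured by the call at an adjusted p under 0.05. The points of the first 4 groups of enzymes lie mostly right of 0. The genes called lower, *Tm7sf2*, *Insig2* and *Lrp1*, lie left of it, as do *Dhcr7* and *Mbtps1*, which did not pass. The grey bar of *Lrp8* reaches down to 0.84 on the log2(FPKM + 1) scale.

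Among the control genes, the *Insig* pair changed in opposite directions and the machinery that carries and cuts SREBP2 did not pass the test. *Insig1* (ENSMUSG00000045294, chromosome 5, 28276361 to 28283660), itself a target of SREBP2, was at 32.4, 25.7 and 31.1 CPM in LOXP and 56.9, 61.3 and 51.8 CPM in the libraries labelled KO. It was higher by 0.93 ± 0.105 (adjusted p = 0.000647), with no overlap. *Insig2* (ENSMUSG00000003721, chromosome 1, 121232082 to 121260318), whose liver transcript is known to be repressed by insulin, was at 91.4, 81.1 and 87.1 CPM in LOXP and 61.4, 57.7 and 56.6 CPM in the libraries labelled KO. It was lower in each of them (-0.56 ± 0.0718, adjusted p = 0.00115). Per length, *Insig1* was below *Insig2* in every LOXP library, with FPKM ratios of 0.777, 0.694 and 0.783, and above it in every library labelled KO, with ratios of 2.03, 2.33 and 2.01. The order of the 2 genes per length was thus reversed between the groups, which rests on 1 fixed length per gene. In counts not scaled to length, *Insig1* stayed below *Insig2* in KO replicates 1 (892 against 963) and 3 (889 against 971). *Insig1* was above *Insig2* in KO replicate 2 (1136 against 1069). Both promoters hold NF-Y boxes in the windows shown. The windows of the other listed starts of *Insig2* each hold an Sp1 box and no NF-Y box. Which start these cells use was not tested.

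*Srebf2* (ENSMUSG00000022463, chromosome 15, 82031382 to 82089580) was at 155, 174 and 164 CPM in LOXP and 152, 227 and 194 CPM in the libraries labelled KO. The groups overlapped, since KO replicate 1 was the lowest of all 6 libraries, and the difference of 0.22 ± 0.129 did not pass (adjusted p = 0.263). It passed when that library was left out (0.36, adjusted p = 0.0371). *Scap* was at 142, 153 and 151 CPM in LOXP and 145, 157 and 155 CPM in the libraries labelled KO (0.03 ± 0.0593, adjusted p = 0.725). *Mbtps1*, the site-1 protease gene, was at 101, 116 and 110 CPM in LOXP and 101, 105 and 104 CPM in the libraries labelled KO (-0.07 ± 0.0669, adjusted p = 0.493). *Mbtps2*, the site-2 protease gene, was at 56.9, 52.9 and 52.4 CPM in LOXP and 59.9, 54.4 and 50.6 CPM in the libraries labelled KO (0.02 ± 0.0814, adjusted p = 0.873). The values of these last 3 genes overlapped between the groups. Of the 50-base words of *Mbtps2*, 28.9% occur in other annotated genes, mainly *Yy2*, which had 110 counts over the 6 libraries. Levels of mRNA do not show how much SREBP2 protein was cut.

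**Figure D3:**
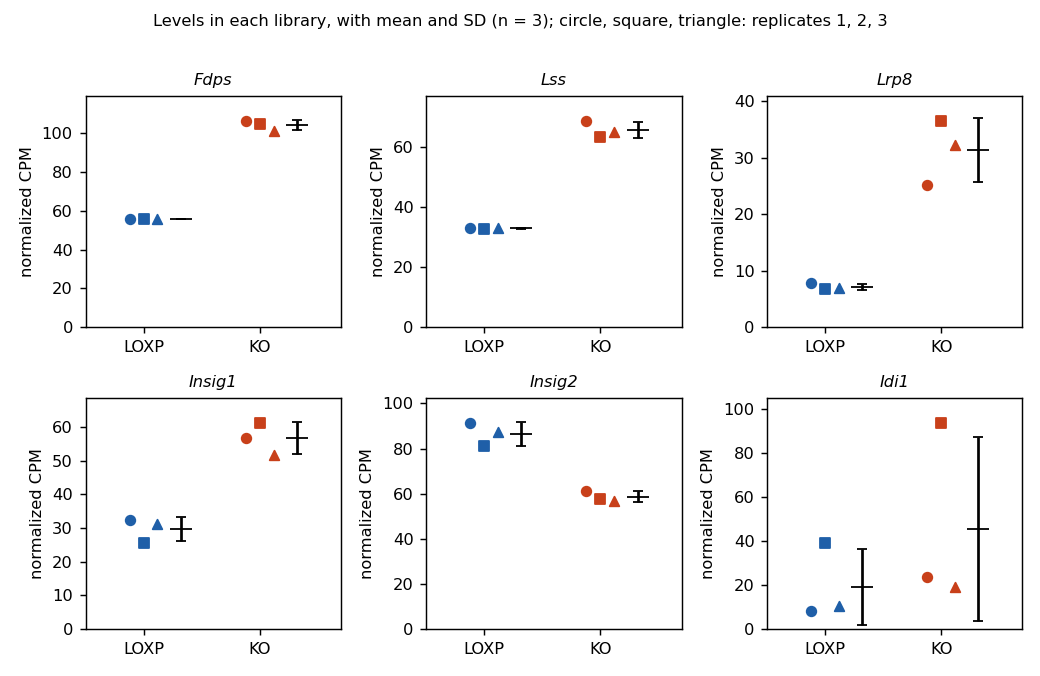
Normalized CPM in each library for *Fdps*, *Lss*, *Lrp8*, *Insig1*, *Insig2* and *Idi1*, with LOXP in blue, KO in orange, circles, squares and triangles for replicates 1, 2 and 3, and the mean with its SD (n = 3) beside each group. The groups are apart for each gene except *Idi1*, whose replicate 2 is the highest library of both groups.

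Of the 5 uptake, transport and storage genes, 2 were higher and 1 was lower. Among all genes tested, 11.5% were higher and 11.6% lower. *Lrp8* (ENSMUSG00000028613, chromosome 4, 107659066 to 107734037), the apolipoprotein E receptor 2 of the LDL receptor family, was at 7.76, 6.71 and 6.85 CPM in LOXP and 25.2, 36.5 and 32.3 CPM in the libraries labelled KO. It was 4.41-fold higher with no overlap, a log2 fold change of 2.14 ± 0.151 (adjusted p = 7.60e-05). It stayed a low gene per length, at 0.293 ± 0.0268 FPKM in LOXP and 1.32 ± 0.234 FPKM in the libraries labelled KO (SD, n = 3), and its log2 fold change was 0.84 on the log2(FPKM + 1) scale. *Stard4* (ENSMUSG00000024378), a cytosolic carrier of cholesterol, was at 19.2, 18.5 and 20.5 CPM in LOXP and 32.9, 27.3 and 29.2 CPM in the libraries labelled KO. It was higher by 0.62 ± 0.0957 (adjusted p = 0.00280). *Lrp1* (ENSMUSG00000040249, chromosome 10, 127374030 to 127457017), a large receptor for lipoprotein remnants and protease complexes, was at 449, 473 and 470 CPM in LOXP and 376, 389 and 416 CPM in the libraries labelled KO. It was lower in each of them, by a small amount (-0.24 ± 0.0544, adjusted p = 0.0163), and lost the call without LOXP replicate 3 (adjusted p = 0.0531), KO replicate 1 (adjusted p = 0.0708) or KO replicate 2 (adjusted p = 0.0661). *Mylip*, which encodes a ubiquitin ligase for lipoprotein receptors, had a log2 fold change of 0.10 ± 0.356 (adjusted p = 0.869) from 239 counts in all 6 libraries. *Soat2*, which esterifies cholesterol for storage, had one of 0.01 ± 0.0892 (adjusted p = 0.964).

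Levels per length ranged widely among the genes. In LOXP, *Soat2* was the highest of the 31 genes, at 29.5 ± 1.81 FPKM, followed by *Lrp1* at 21.9 ± 0.426 and *Hmgcs1* at 18.3 ± 1.74, and *Mylip* at 0.609 ± 0.225 and *Lrp8* were the lowest. In the libraries labelled KO, *Hmgcs1* at 30.5 ± 1.51 FPKM and *Soat2* at 30.5 ± 3.33 did not differ beyond their spread, and *Cyp51* at 26.2 ± 1.30 came next. *Cyp51* was at 13.8 ± 1.06 FPKM in LOXP, where *Srebf2* had the same mean of 13.8 ± 0.633. These levels rest on 1 fixed length per gene.

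**Figure D4:**
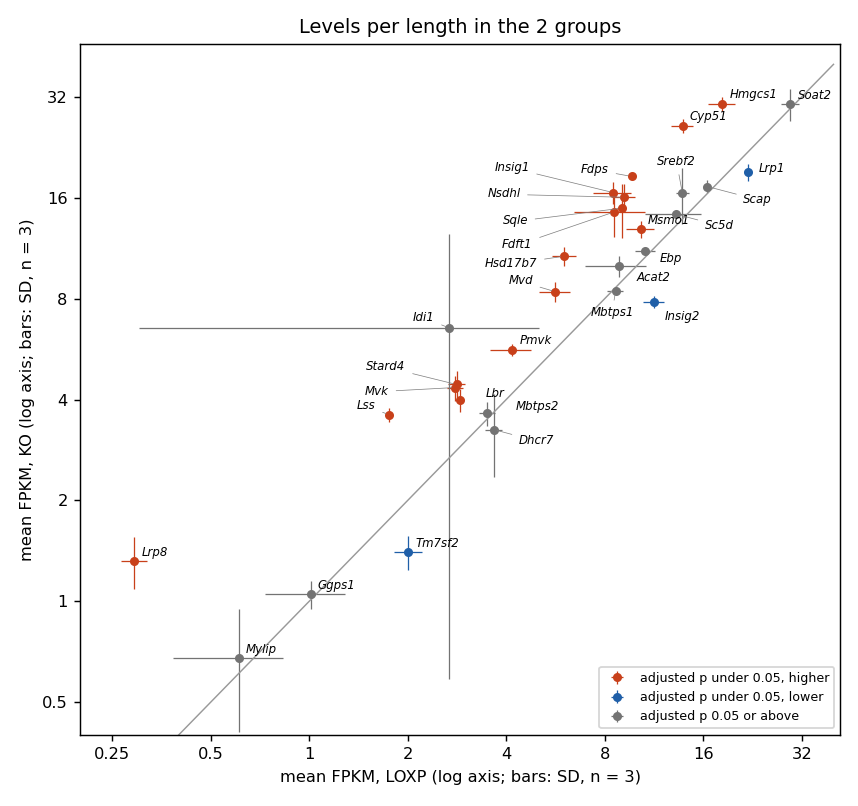
Mean FPKM of each gene in the libraries labelled KO against its mean in LOXP, both on log axes, with SD bars (n = 3 per group) and the line of equal levels, coloured by the call at an adjusted p under 0.05. Genes called higher lie above the line over the range from *Lrp8* at 0.293 FPKM to *Hmgcs1* at 18.3 FPKM in LOXP, and the bars of *Idi1* cross the line.

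Genes of neighbouring lipid pathways went in both directions. Of 14 further SREBP targets and genes of acetyl-CoA supply, 8 were higher (*Acly*, *Aacs*, *Slc25a1*, *Me1*, *Pcyt2*, *Erg28*, *Fads2* and *Cyb5b*) and *Acss2* was lower, with a median of 0.25, where 11.5% of all genes tested were higher and 11.6% lower. *Me1*, the malic enzyme, lost the call in 3 of the 6 fits that left out a library and by the likelihood ratio test (adjusted p from 0.0527 to 0.0783). *Cyb5b*, an outer mitochondrial cytochrome b5, was higher by 0.44 ± 0.0507 (adjusted p = 0.000678), *Acly*, which makes cytosolic acetyl-CoA from citrate, by 0.38 ± 0.0486 (adjusted p = 0.00118), and *Aacs*, which activates acetoacetate, by 0.58 ± 0.0819 (adjusted p = 0.00180). *Acss2*, which makes acetyl-CoA from acetate, fell by 0.38 (SE 0.0720, adjusted p = 0.00692). Of 10 tested genes of fatty acid synthesis, mainly targets of the sister factor SREBP1c, *Fasn* was higher and *Acacb*, *Scd1* and *Gpam* were lower, with a median of 0.06 and the same background shares. *Gpam*, which starts glycerolipid synthesis, lost the call without LOXP replicate 3 (adjusted p = 0.0572). *Fasn*, the fatty acid synthase, rose from 152 ± 6.48 to 338 ± 10.1 CPM (SD, n = 3), a log2 fold change of 1.15 ± 0.0551 (adjusted p = 9.34e-06). *Scd1*, the stearoyl-CoA desaturase, fell from 229 ± 6.83 to 140 ± 2.67 CPM (-0.71 ± 0.0520, adjusted p = 8.34e-05).

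The genes of the isoprenoid branches and of the routes out of the cell are read against the same shares, 11.5% higher and 11.6% lower. No list was tested against these shares. The list of isoprenoid branches held 14 genes, mainly of the routes to dolichol, ubiquinone and prenylated proteins. Of these, 0 passed edgeR's quasi-likelihood test, its likelihood ratio test, DESeq2 or limma-trend, and their median was 0.02. At an unadjusted p under 0.05, 3 were higher and 1 was lower. The smallest adjusted p values among them were 0.0684 for *Trit1*, which lies outside the named routes, 0.0828 for *Pdss2* and 0.107 for *Coq2*. Of 13 genes of sterol-regulated protein degradation in the endoplasmic reticulum, *Pgrmc1* (0.16 ± 0.0420, adjusted p = 0.0266) was higher and *Erlin2* (-0.25 ± 0.0554, adjusted p = 0.0136) and *Sel1l* (-0.55 ± 0.127, adjusted p = 0.0160) were lower. The call of *Pgrmc1* was lost in 5 of the 6 fits that left out a library and by the likelihood ratio test (adjusted p from 0.0606 to 0.111), that of *Erlin2* without KO replicate 3 (adjusted p = 0.0566), and that of *Sel1l* without KO replicate 1 (adjusted p = 0.0538) or KO replicate 2 (adjusted p = 0.0624). Of 12 targets of the sterol sensor LXR and genes of sterol efflux, 3 were lower by edgeR's quasi-likelihood test and by limma-trend, and 4 by DESeq2 and the likelihood ratio test, which added *Arl4c*. By these tools 0 were higher, with 1 higher at an unadjusted p under 0.05. The 3 were *Abca1*, the exporter of cholesterol to apolipoprotein A-I (-0.73 ± 0.0797, adjusted p = 0.000560), *Lcat*, which esterifies cholesterol in plasma (-0.69 ± 0.0659, adjusted p = 0.000305), and *Abcg8*, a subunit of the biliary exporter (-0.89 ± 0.231, adjusted p = 0.0266). *Abcg8* lost the call without LOXP replicate 3 (adjusted p = 0.0847), KO replicate 2 (adjusted p = 0.0908) or KO replicate 3 (adjusted p = 0.0855). Its mean level was low, 1.016 FPKM in LOXP and 0.5645 FPKM in the libraries labelled KO. *Abcg5*, the other subunit of that exporter, had a log2 fold change of 0.0396 ± 0.2995 (adjusted p = 0.943). Of 17 genes of sterol storage and trafficking, 0 were higher by edgeR, DESeq2, limma-trend or at an unadjusted p under 0.05, and 4 were lower: *Stard5* (-0.69 ± 0.0752, adjusted p = 0.000553), *Osbpl2* (-0.30 ± 0.0754, adjusted p = 0.0225), *Gramd1c* (-0.42 ± 0.109, adjusted p = 0.0256) and *Cyp27a1* (-0.26 ± 0.0727, adjusted p = 0.0332). By limma-trend, 2 of the 17 were lower. When a library was left out, *Gramd1c* lost the call in 5 of the 6 fits and *Osbpl2* and *Cyp27a1* in 4, and over all alternatives the highest adjusted p was 0.0851, 0.0898 and 0.115. The medians were -0.05 for the degradation genes, -0.04 for the LXR and efflux genes and -0.13 for the storage and trafficking genes.

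**Figure D5:**
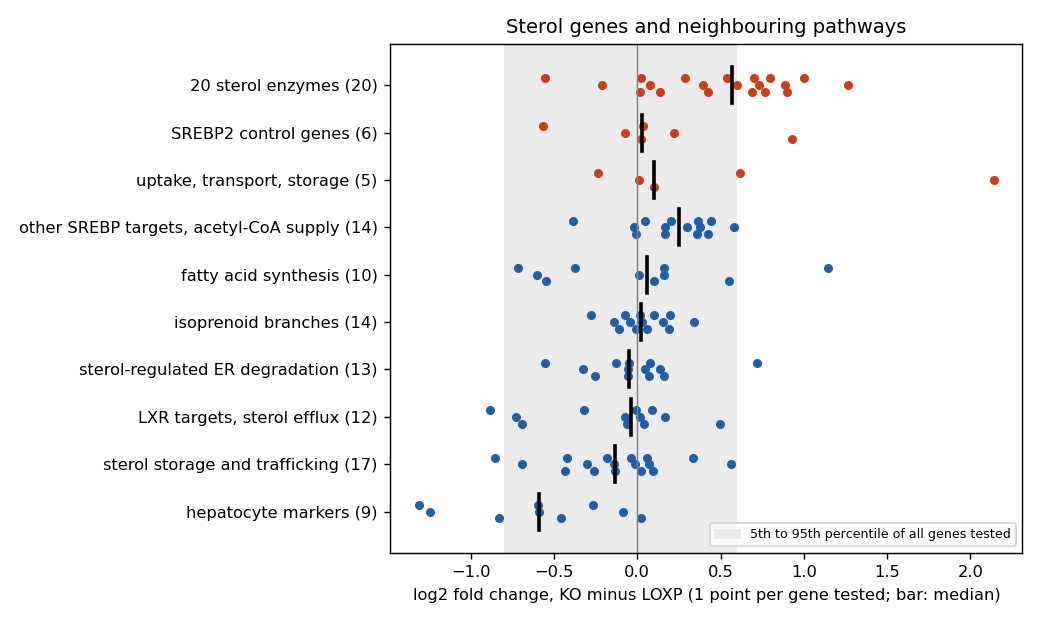
Log2 fold change between the libraries labelled KO and LOXP of each tested gene (points), for the 31 genes in 3 groups (orange) and for neighbouring pathway lists and hepatocyte markers (blue), with the median of each list as a black bar and the 5th to 95th percentiles of all genes tested, -0.80 to 0.59, in grey. The median of the 20 sterol enzymes lies at 0.57 and that of the hepatocyte markers at -0.59. That of the list of other SREBP targets and acetyl-CoA supply genes lies at 0.25.

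Most hepatocyte markers were lower in the libraries labelled KO, where the share of lower calls among all genes tested was 11.6%, and the part of any marker list in the sterol genes' differences was not tested. Of 9 tested hepatocyte markers, 7 were lower (*Alb*, *Ttr*, *Fgb*, *Hnf4a*, *Tat*, *Cps1* and *Ahsg*) and 0 were higher by edgeR, DESeq2, limma-trend or at an unadjusted p under 0.05, and the list summed to 9696 to 10110 FPKM in LOXP and 8305 to 8445 FPKM in the libraries labelled KO. In bulk RNA, fewer cells of a type and less RNA per cell cannot be told apart. Of 5 tested cholangiocyte markers, *Sox9*, *Spp1* and *Cldn4* were lower and *Krt19* was higher, with summed levels of 124 to 145 FPKM in LOXP and 65.7 to 77.0 FPKM in the libraries labelled KO. Most of these sums was *Cldn4*, at a mean of 111 FPKM in LOXP and 55.8 FPKM in the libraries labelled KO. *Krt19* was at 0.888 and 1.61 FPKM, and *Krt7* and *Epcam* had too few counts to be tested. Which cells the RNA of these genes came from was not tested. *Krt19* lost the call in 5 of the 6 fits that left out a library, by DESeq2 and under other alternatives (adjusted p from 0.0628 to 0.152). Of 12 tested macrophage markers, *Cd68* and *Mpeg1* were lower, with sums of 66.7 to 83.6 and 53.1 to 62.8 FPKM. A further macrophage marker, *Cd5l*, was at 6.18, 2.31 and 7.97 CPM in LOXP and 10.8, 11.6 and 9.33 CPM in the libraries labelled KO. Its difference of 0.94 ± 0.344 did not pass the quasi-likelihood test (adjusted p = 0.0853). It did pass DESeq2 (adjusted p = 0.0215) and the likelihood ratio test (adjusted p = 0.0468). *Clec4f*, *Vsig4*, *C1qa*, *C1qb* and *C1qc*, none of which passed the quasi-likelihood test (adjusted p from 0.4705 to 0.840), were also lowest in LOXP replicate 2. The other tested macrophage markers were not lowest in that library. Of 8 tested markers of sinusoidal endothelial cells, *Stab2* was lower, a share near that of all genes, with sums of 28.9 to 30.7 and 26.6 to 29.1 FPKM. Of 8 tested stellate cell markers, 0 passed edgeR's test, DESeq2 or limma-trend and 1 was higher at an unadjusted p under 0.05, with sums of 17.3 to 19.1 and 17.3 to 19.2 FPKM. Of the lymphocyte list 6 of 7 genes and of the neutrophil list 2 of 5 had 0 counts in every library, and neither list reached a sum of 1 FPKM in any library.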

How the data were processed

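RNA of palmitic acid-treated primary mouse hepatocytes was sequenced in 6 libraries, 3 labelled LOXP and 3 labelled KO. Libraries were made with the VAHTS Universal V6 kit. Paired-end reads were mapped by the authors with HISAT2, and the submitters' processing notes also name fastp, StringTie, edgeR and build GRCm39. The annotation, counting tool and strand setting are not given in the sources used here. The authors deposited 1 table with a whole-number read count, not normalized, and an FPKM value for each gene and library, and each of its columns of library values matched a label. The deposited FPKM values divide the count by a single gene length and by the counted reads of the library, checked on 12160 genes whose implied length differed between libraries by at most 0.00418%.

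The test used edgeR 4.0.16 in R 4.3.3, with filterByExpr (minimum count 10), TMM factors (0.973 to 1.02) and the two-sided quasi-likelihood test of KO against LOXP, adjusted over 14151 genes. The biological coefficient of variation was 0.118. Alternatives were upper-quartile factors, DESeq2 1.42.0 (no adjusted p for 8 genes), the likelihood ratio test, 2 count filters, the replicate number as a block, limma 3.58.1 on log2(FPKM + 1) and log2(FPKM + 0.1), and each library left out. Replicates differed by more than counting noise (chi-square over its degrees of freedom, 7.58 to 16.1). Scripts were tested on simulated data. Members, gene lists and tests were chosen with earlier results of these data known. Values per library are given for the 6 control genes and the 16 members with the smallest adjusted p, and for *Idi1*, which was singled out after its values were seen. From each pathway list the text names the genes that meet the authors' 3 criteria, or else the 3 with the smallest adjusted p. Beyond these it names any gene behind a count of 5 or fewer, and the 8 higher genes of the SREBP target and acetyl-CoA list. *Abcg5* is named as the partner of *Abcg8*. Shared 50-base words and gene strands were read from GENCODE M21 transcripts (GRCm38), and gene positions are those of the table. RefSeq promoters have their own build. No genome of the table's build and no protein sequence was used here. Figures were drawn with matplotlib 3.10.9. Results for some genes of the pathway lists are not reported here, and these genes are left out of the lists' counts.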

Additional observations from a re-analysis of the deposited data

How the results depend on the processing

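Of the 19 genes called among the 31, 15 kept the call under all 14 alternatives, and *Pmvk*, *Msmo1*, *Fdft1* and *Lrp1* lost it under some. Calls numbered 16 to 19. When all genes with 1 count or more were tested, *Pmvk* (adjusted p = 0.0732) and *Msmo1* (adjusted p = 0.0595) did not pass, and more genes then share the adjustment. By the authors' criteria 1 gene was higher, against 2 under DESeq2, with all genes of 1 count or more, and under the replicate block, and 0 by limma-trend on log2(FPKM + 1), a scale that lowers the fold of *Lrp8*. The second gene was *Lss* in the first 2 settings and *Idi1* under the block. When 1 library at a time was left out, this count was 1 to 2, the genes called among all tested were 922 to 1510 higher and 1052 to 1515 lower (the lowest without KO replicate 2), and the median log2 fold change of the 31 genes was 0.30 to 0.43 (the lowest without KO replicate 2). The same fits gave log2 fold changes on both sides of 0 for *Sting1* (-0.26 to 0.11), *Ggps1* (-0.12 to 0.25), *Ebp* (-0.0397 to 0.0625), *Sc5d* (-0.0162 to 0.24), *Mbtps2* (-0.0405 to 0.0819), *Mylip* (-0.26 to 0.36) and *Soat2* (-0.0746 to 0.0601). Same-numbered libraries of the 2 groups deviated together with correlations across genes of 0.120, 0.0834 and 0.0134, and LOXP replicate 3 correlated best with KO replicate 2 (0.0459), so the numbers were not taken to pair the libraries. With the replicate block, 18 of the 31 genes were called, 17 of them shared: *Pmvk* (adjusted p = 0.0545) and *Msmo1* (adjusted p = 0.0601) did not pass and *Idi1* did (1.24 ± 0.134, adjusted p = 0.00271). *Mylip* and *Sting1* rest on few counts. With 3 libraries against 3 an exact permutation test of a single gene cannot give a p under 0.1.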

Other observations

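Replicate 2 of *Idi1* was at least 3 times replicates 1 and 3 in both groups. Of the 14151 genes tested, 1 other gene, the histone gene *H2ac18*, met this description, which was set after the values of *Idi1* had been seen. *H2ac18* was at 24.7 CPM in LOXP replicate 2 against 0 and 6.32 CPM in the other LOXP libraries, and at 6.26 CPM in KO replicate 2 against 0 in both others, so its ratios rest on libraries at 0. For replicates 1 and 3 the same description fitted 0 genes.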
